A study of Saccharomyces cerevisiae with 10 samples.

Results

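Nitrogen catabolite repression (NCR) lets *Saccharomyces cerevisiae* keep the genes for poor nitrogen sources low while a good source is present. RNA-seq measured 38 transcripts of this system, out of 6612 transcripts in all, in BY *UBR1* -469A>T and in BY. The 38 were chosen by gene identifier, for the role of the gene, with earlier results of these data known. They cover ammonium and amino acid permeases, the allantoin, urea, proline, arginine and GABA pathways, enzymes of ammonium and glutamate metabolism, and their regulators. BY *UBR1* -469A>T, the edited strain, is the haploid laboratory strain BY with 1 base of the *UBR1* promoter exchanged by CRISPR for the base carried by the vineyard strain RM, and BY carries its own promoter. *UBR1* encodes the ubiquitin ligase of the Arg/N-end pathway. Each strain gave 5 cultures, all 10 grown in synthetic complete (SC) medium from an optical density of 0.05 and harvested together after about 7 hours at a density near 0.4, without any treatment. The RNA extractions were split into batches, and each batch held both strains. The batch and the exact optical density of each culture were not used here.

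In background terms, 4 transcription factors that bind GATA sequences govern these genes. Gln3 and Gat1 activate them, Dal80 and Gzf3 repress them, and Ure2 holds Gln3 in the cytoplasm when nitrogen is plentiful. The TORC1 kinase complex acts upstream of Gln3 and Gat1. Several pathways also have an activator of their own that answers to the pathway's substrate, such as Put3 for proline and Uga3 for GABA. The genes *GAT1*, *DAL80* and *GZF3* carry GATA sequences themselves, so that the regulators act on each other.

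The letters GATAAG were searched on both strands in the 500 bases before each start codon of R64, overlapping matches included. At least 1 match was present at 28 of the 38 genes, against 22.8% of 6006 R64 genes, at least 2 matches at 21 members against 3.6% of all genes, and at least 3 at 14 members against 0.5%. *MEP2* had 7 matches, *MEP3* and *DAL3* had 5 each, and 10 members had 0: *GLN1*, *GDH2*, *URE2*, *PUT4*, *PUT3*, *UGA1*, *UGA2*, *ASP1*, *CAR1* and *CAR2*. Members with 2 or more matches and members with 0 or 1 were called lower in 10 of 21 and 9 of 17 cases by the test described below. The 180 bases with the densest matches are shown for *MEP2*, *GAP1* and *DUR1,2*, which were among the 8 transcripts of all 5987 tested that varied most between cultures, and for the regulator *GAT1*. They are written 5′ to 3′ on the strand of the gene, with GATAAG or its reverse complement CTTATC in capitals. A match describes the letters only.
*MEP2*, chrXIV:356972-357151, plus strand of R64, 481 to 302 bases before the start codon, overlapping the neighbour YNL143C: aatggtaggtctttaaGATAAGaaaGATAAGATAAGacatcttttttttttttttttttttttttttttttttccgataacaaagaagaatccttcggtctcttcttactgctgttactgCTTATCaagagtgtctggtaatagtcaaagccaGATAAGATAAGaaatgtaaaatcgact
*GAP1*, chrXI:514683-514862, plus strand, 380 to 201 bases before the start codon: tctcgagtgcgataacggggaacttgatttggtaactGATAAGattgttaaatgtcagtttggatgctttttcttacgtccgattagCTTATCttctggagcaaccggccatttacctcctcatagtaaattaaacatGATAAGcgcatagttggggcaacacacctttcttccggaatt
*DUR1,2*, chrII:642520-642699, minus strand, 489 to 310 bases before the start codon, overlapping YBR209W: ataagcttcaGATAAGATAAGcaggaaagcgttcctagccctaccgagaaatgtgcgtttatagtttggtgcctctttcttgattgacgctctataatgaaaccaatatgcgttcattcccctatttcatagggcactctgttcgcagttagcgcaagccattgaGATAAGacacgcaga
*GAT1*, chrVI:95636-95815, plus strand, 330 to 151 bases before the start codon: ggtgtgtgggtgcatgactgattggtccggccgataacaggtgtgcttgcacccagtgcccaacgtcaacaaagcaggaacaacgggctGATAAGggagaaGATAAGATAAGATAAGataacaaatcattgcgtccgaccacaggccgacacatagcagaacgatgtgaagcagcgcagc
The *MEP2* stretch holds 6 matches, 1 of them on the reverse strand, and the *GAP1* stretch holds 3, 1 of them reversed. *DUR1,2* has 3 and *GAT1* has 4, all on the forward strand. In *MEP2*, *DUR1,2* and *GAT1* some matches overlap their neighbour, as in GATAAGATAAG.

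The libraries held 71103539 to 97644549 estimated counts in BY *UBR1* -469A>T and 72105131 to 94432416 in BY. *UBR1*, whose promoter was edited, had 162, 166, 179, 175 and 183 normalized CPM (counts relative to the library total, with TMM scaling) in replicates 1 to 5 of BY *UBR1* -469A>T, against 156, 154, 157, 134 and 142 in BY. All 5 edited libraries lay above all 5 BY libraries, with a log2 fold change of 0.21 (SE 0.047, edgeR adjusted p = 0.019; exact two-sided permutation p = 0.0079, the smallest possible with 5 against 5), and this call was lost without BY replicate 5 (log2 fold change 0.19). Permutation p-values are given without adjustment. Both strains had an **a**-cell profile. The summed level of 5 **a**-cell markers was 1744 to 2172 CPM in BY *UBR1* -469A>T and 1840 to 2174 CPM in BY, and that of the α-cell markers was 31.8 to 34.1 CPM in BY *UBR1* -469A>T and 32.1 to 39.5 CPM in BY. The labels name BY4741, yet *HIS3*, *HO*, *LEU2*, *MET17* and *URA3* had 2398 or more estimated counts in each library, and the study's strain table lists *HIS3* and *HO* as deleted. Across all transcripts, edgeR's quasi-likelihood test, fitted with 2 surrogate variables (hidden sources of variation estimated from the counts), called 1269 of 5987 at a Benjamini-Hochberg adjusted p under 0.1. This count rests on the surrogate variables: without them edgeR called 0 transcripts, with 1400 at an unadjusted p under 0.05.

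Of the 38 NCR transcripts, which all passed the low-count filter of 10 estimated counts in each library, 19 (50%) were called lower in BY *UBR1* -469A>T, where 9.32% of all tested transcripts were, and 2 (5.26%) were called higher, where 11.9% of all were. The other 17 did not pass the test. Because the 38 were chosen with earlier results of these data known, these shares are a description and not an independent test. The fitted log2 fold change was negative for 33 of the 38, against 49.5% of all transcripts, and its median was -0.16 among the members and 0.0012 among all. By role, all 3 ammonium permeases, all 3 genes of proline use and both genes of arginine use were called lower, while 3 of the 5 GATA regulators, 4 of the 5 ammonium assimilation genes and 3 of the 4 pathway activators were not called. In bulk RNA, fewer cells that express a gene and less RNA per cell cannot be told apart.

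The cultures of each strain differed widely, and the size of these differences depended on how that was handled. Without covariates the members' median difference of log2 CPM was -0.29, against -0.0050 for all transcripts, and the fitted change was smaller than the difference without covariates for 34 of the 38. The first surrogate variable was 0.31, 0.089, -0.20, -0.26 and -0.58 in replicates 1 to 5 of BY *UBR1* -469A>T. In BY it was 0.31, 0.42, 0.22, 0.028 and -0.35. The second was 0.77 in BY replicate 1 and 0.31 or less in every other library. How much of the strain difference they took up was not tested. Without covariates 21 members had an unadjusted p under 0.05 in edgeR, and 0 passed after adjustment. The exact two-sided permutation p, also without covariates, was under 0.05 for 6 of the 38: *DAL5*, *GDH2*, *GZF3*, *PUT1*, *PUT2* and *PUT3*. It was above 0.05 for all other called members, such as *PUT4* (0.056), *GAP1* (0.095), *MEP2* (0.12) and *UGA2* (0.98). All 5 edited libraries lay below all 5 BY libraries for *PUT1* and *PUT3* only, 2 of 38 members, where 1.39% of all transcripts separated in this direction. No member separated in the opposite direction, as 1.54% of all transcripts did. Leaving out 1 library also moved the count of lower calls: it was 6 without BY replicate 5, where 1.79% of all transcripts were called lower, 8 without BY *UBR1* -469A>T replicate 2, where 2.40% were, and 12 without BY replicate 1, where 8.97% were. It lay between 14 and 20 without any other single library, where 5.09% to 8.89% of all transcripts were called lower. The 6 members that kept their call in each of these 10 fits were *MEP3*, *GDH2*, *GAT1*, *PUT1*, *PUT4* and *CAR1*. All 10 fits used 2 surrogate variables, and with 1 surrogate variable only *GDH2* of the 6 was called.

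**Figure D1:**
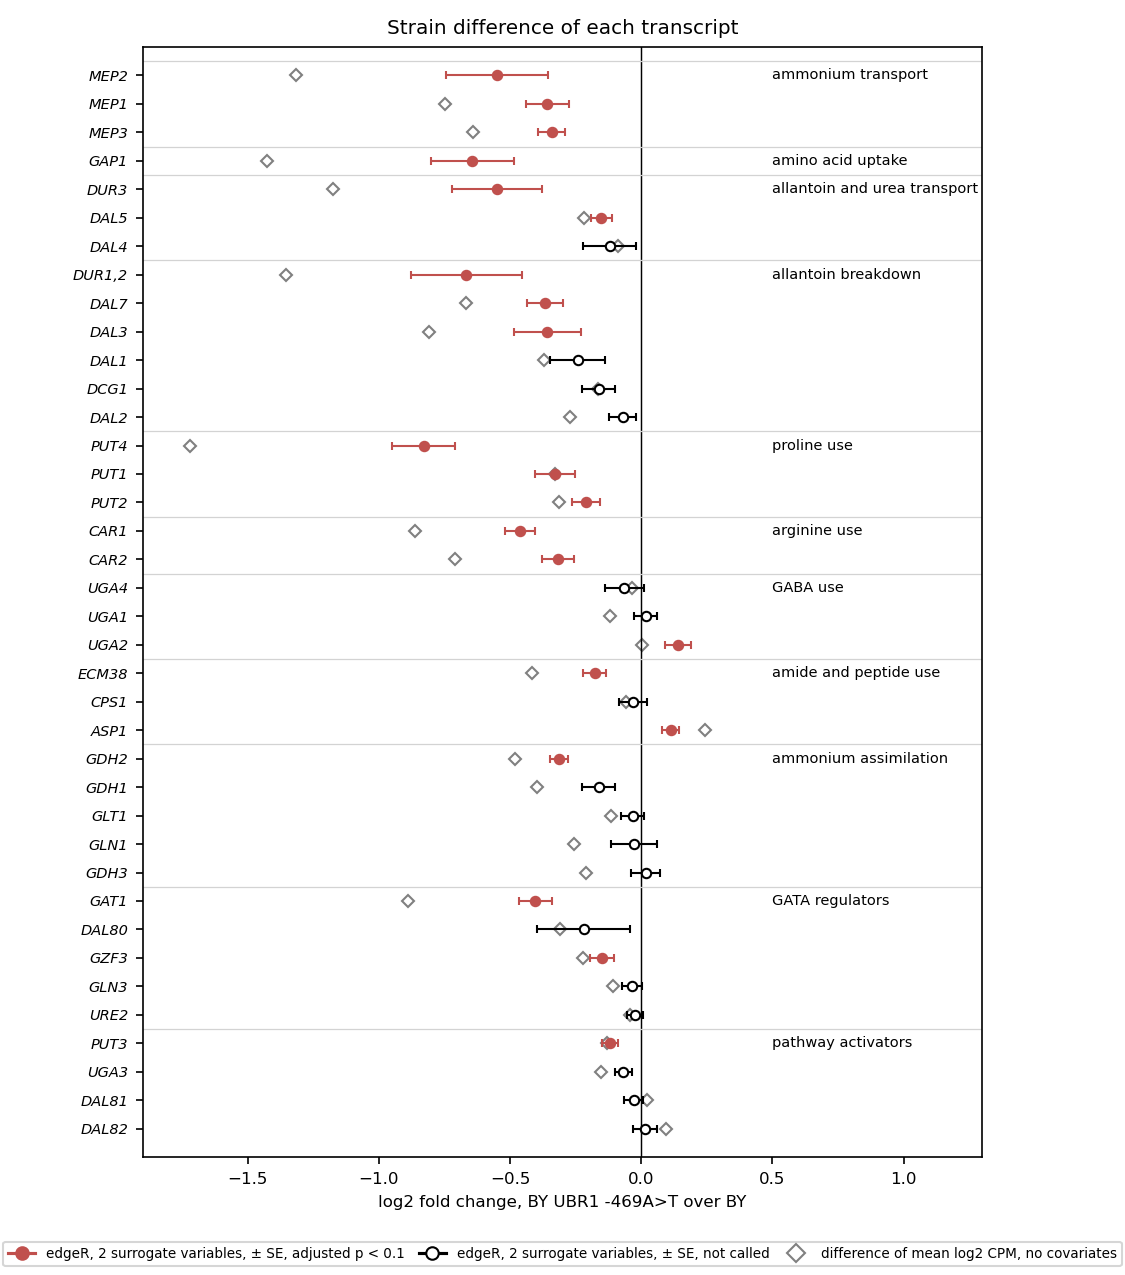
Log2 fold change of BY *UBR1* -469A>T over BY for the 38 transcripts, grouped by role. Circles with bars are edgeR estimates ± SE with 2 surrogate variables, filled in red where the adjusted p was under 0.1, and diamonds are differences of mean log2 CPM with no covariates. Estimates run from -0.83 for *PUT4* to 0.14 for *UGA2*, and for *MEP1*, *MEP2*, *MEP3*, *GAP1*, *PUT4*, *DUR1,2* and *DUR3* the diamonds lie well to the left of the circles.

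The 3 ammonium permeases were called lower in BY *UBR1* -469A>T. *MEP2* (YNL142W, chrXIV:357453-358952, plus strand), the high-affinity permease that also signals filamentous growth, had 87.1, 52.6, 32.5, 21.4 and 18.6 CPM in replicates 1 to 5 of BY *UBR1* -469A>T, against 254, 163, 137, 36.0 and 27.5 CPM in BY. BY replicates 1, 2 and 3 lay above every edited library, and BY replicates 4 and 5 lay inside the edited range. The fitted log2 fold change was -0.55 (SE 0.19, edgeR adjusted p = 0.085), and the difference without covariates was -1.31. *MEP1* showed the same layout, with 57.9, 44.2, 29.3, 32.9 and 26.7 CPM in BY *UBR1* -469A>T against 108, 81.5, 68.8, 42.3 and 34.1 CPM in BY, and a log2 fold change of -0.36 (SE 0.082, edgeR adjusted p = 0.020). *MEP3*, the low-affinity permease, varied least of the 3. It had 90.8, 76.0, 64.3, 59.5 and 52.5 CPM in the edited libraries and 157, 129.9, 122, 86.2 and 59.9 CPM in BY, with a log2 fold change of -0.34 (SE 0.053, edgeR adjusted p = 0.0026). The call on *MEP3* stood in all 10 fits that left out a library, with -0.22 without BY replicate 1. With 1 surrogate variable *MEP3* had -0.19 and was not called. *MEP1* lost it without BY replicate 1 (-0.19), BY replicate 5 (-0.21) or edited replicate 2 (-0.31) and had -0.24 without edited replicate 3, and of these 10 fits *MEP2* kept it only in those without BY replicate 3, BY replicate 4 or edited replicate 5, with a log2 fold change as small as -0.16 without BY replicate 1 and -0.27 without BY replicate 5. *MEP2* also lost its call in DESeq2 (adjusted p = 0.11) and in edgeR without the count filter (adjusted p = 0.17), and over all 21 alternatives its adjusted p ranged from 0.013 to 0.85.

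*GAP1* (YKR039W, chrXI:515063-516871, plus strand), the general amino acid permease and the classic NCR target, fell to 137 ± 99.3 CPM (SD, n = 5) in BY *UBR1* -469A>T, against 394 ± 264 CPM in BY. The edited libraries had 299, 163, 97.0, 66.9 and 58.8 CPM in replicates 1 to 5, and the BY libraries had 716, 555, 448, 154 and 95.3 CPM. As with the ammonium permeases, BY replicates 1, 2 and 3 stood above all edited libraries while BY replicates 4 and 5 did not. The fit gave a log2 fold change of -0.64 (SE 0.16, edgeR adjusted p = 0.024) and the difference without covariates was -1.43. The call was lost without BY replicate 5 (-0.44) or edited replicate 2 (-0.51), and the fold change was -0.34 without BY replicate 1.

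**Figure D2:**
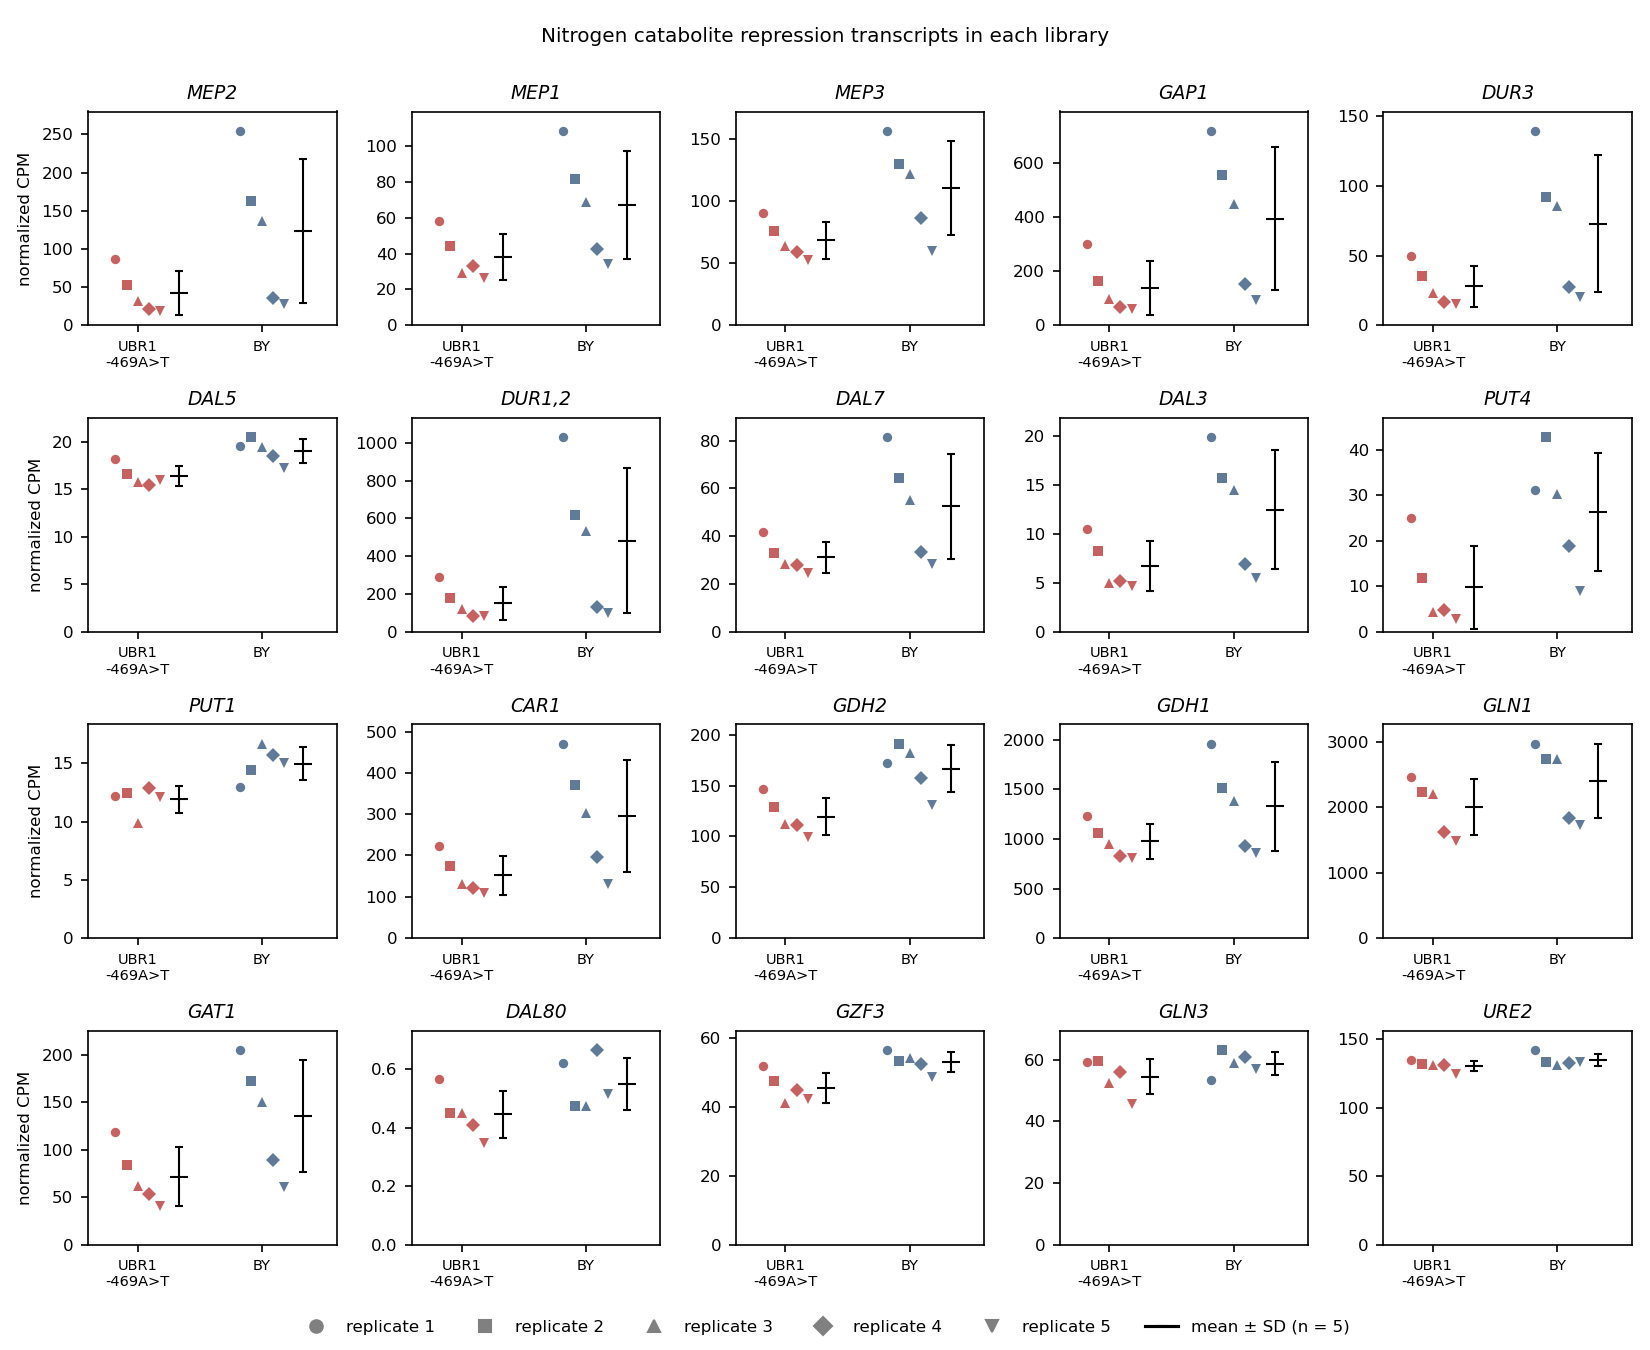
Normalized CPM of 20 NCR transcripts in each library, BY *UBR1* -469A>T on the left and BY on the right of each panel, with a marker for each replicate and the mean ± SD of 5 beside them. For *MEP2*, *GAP1*, *DUR1,2* and *DUR3* the BY libraries spread from inside the edited range to far above it, whereas *PUT1* separates by strain and *URE2* is nearly level.

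Of the 9 genes for uptake and breakdown of allantoin and urea, 5 were called lower and 4 were not called. *DUR1,2* (YBR208C, chrII:636703-642210, minus strand), urea amidolyase, splits urea into ammonium and carbon dioxide and varied most of all members within BY. It had 288, 177, 119, 81.4 and 84.9 CPM in BY *UBR1* -469A>T and 1029, 616, 531, 134 and 102 CPM in BY. BY replicate 1 held 10.1 times the level of BY replicate 5, and only BY replicates 1, 2 and 3 exceeded the edited libraries. *DUR3*, the urea permease, had 49.9, 35.5, 22.9, 16.6 and 15.5 CPM in the edited strain, against 139, 92.0, 85.5, 27.5 and 20.4 CPM in BY, with the same 3 BY libraries on top. Fitted log2 fold changes were -0.67 for *DUR1,2* (SE 0.21, edgeR adjusted p = 0.062) and -0.55 for *DUR3* (SE 0.17, edgeR adjusted p = 0.059), and without covariates the differences were -1.35 and -1.18. Among the 10 fits that left out a library, both calls stood only without BY replicate 3, BY replicate 4 or edited replicate 5, and without BY replicate 1 both fold changes came to -0.23. Both stood in DESeq2 and were lost in edgeR without the count filter, where *DUR1,2* had -0.83 and *DUR3* -0.67. *DUR1,2* and *DUR3* were each called in 9 of 21 alternatives.

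The 6 genes of the *DAL* cluster lie side by side on chromosome IX between positions 406260 and 415617 of R64, and only 2 of them were called. *DAL7*, a malate synthase that takes up the glyoxylate made from allantoin, had 41.7, 33.0, 28.3, 27.9 and 24.5 CPM in BY *UBR1* -469A>T and 81.4, 64.3, 55.0, 33.3 and 28.3 CPM in BY. *DAL3*, ureidoglycolate lyase, had 10.5, 8.25, 4.95, 5.19 and 4.64 CPM in the edited libraries, against 19.8, 15.7, 14.5, 6.89 and 5.48 CPM in BY. For both genes BY replicates 1, 2 and 3 were above every edited library and the other BY libraries overlapped with them. The log2 fold change was -0.37 for *DAL7* (SE 0.069, edgeR adjusted p = 0.0080) and -0.36 for *DAL3* (SE 0.13, edgeR adjusted p = 0.088). *DAL7* lost its call without BY replicate 1 (-0.19) or BY replicate 5 (-0.28), and of the 10 fits that left out a library *DAL3* kept its call only in those without BY replicate 4 or edited replicate 5, with -0.17 without BY replicate 1 and -0.22 without edited replicate 3. Their 4 neighbours did not pass the test. Fitted log2 fold changes were -0.24 for *DAL1* (allantoinase), -0.071 for *DAL2* (allantoicase), -0.12 for *DAL4* (allantoin permease) and -0.16 for *DCG1*, whose edgeR adjusted p of 0.11 was the lowest among uncalled members. *DAL5*, the allantoate permease on chromosome X, was more even between cultures. It had 18.1, 16.6, 15.8, 15.4 and 15.9 CPM in BY *UBR1* -469A>T, against 19.6, 20.4, 19.4, 18.5 and 17.2 CPM in BY. Of the BY libraries only replicate 5 fell inside the edited range, and the log2 fold change was -0.15 (SE 0.041, edgeR adjusted p = 0.035; exact two-sided permutation p = 0.016). The call on *DAL5* was lost without BY replicate 5 (-0.15), edited replicate 2 (-0.13) or edited replicate 3 (-0.13).

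Proline use showed the fitted change of greatest size among the members. *PUT4* (YOR348C, chrXV:986899-988782, minus strand), the proline permease, had 25.0, 11.7, 4.42, 4.78 and 2.82 CPM in BY *UBR1* -469A>T and 31.1, 42.7, 30.3, 18.8 and 8.86 CPM in BY. Edited replicates 3, 4 and 5 lay below every BY library, while edited replicate 1 lay above BY replicates 4 and 5. On the log2 scale the fitted change was -0.83 (SE 0.12, edgeR adjusted p = 0.0021), and the call stood without any single library at values from -1.05 to -0.65. With 1 surrogate variable *PUT4* had -0.50 and was not called. *PUT1*, the mitochondrial proline oxidase that starts proline breakdown, was steady within strains, with 12.2, 12.4, 9.88, 12.9 and 12.1 CPM in the edited libraries and 13.0, 14.4, 16.7, 15.7 and 15.01 CPM in BY. The highest edited library lay just below the lowest BY library. Its log2 fold change was -0.33 (SE 0.078, edgeR adjusted p = 0.021; exact two-sided permutation p = 0.0079), equal to the difference without covariates. *PUT2*, the dehydrogenase of the second step, averaged 106 ± 10.7 CPM in BY *UBR1* -469A>T and 132 ± 16.7 CPM in BY (SD, n = 5 each), with a log2 fold change of -0.21 (SE 0.055, edgeR adjusted p = 0.031) that lost its call without BY replicate 5 (-0.21) or edited replicate 2 (-0.19).

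Both genes of arginine breakdown were called lower. *CAR1*, arginase, had 223, 174, 132, 122 and 109 CPM in replicates 1 to 5 of BY *UBR1* -469A>T, against 471, 371, 304, 196 and 131 CPM in BY. BY replicates 1, 2 and 3 were above every edited library, and BY replicates 4 and 5 overlapped with them. In the fit the log2 fold change was -0.46 (SE 0.058, edgeR adjusted p = 0.0011), with -0.86 without covariates and -0.28 without BY replicate 1, where the call stood. With 1 surrogate variable *CAR1* had -0.27 and was not called. *CAR2*, ornithine aminotransferase, averaged 29.4 ± 11.1 CPM in the edited strain and 47.7 ± 14.9 CPM in BY (SD, n = 5 each). The fitted change was -0.32 on the log2 scale (SE 0.060, edgeR adjusted p = 0.0080), and the call was lost without BY replicate 5 (-0.25).

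The GABA and amide genes held the only 2 higher calls among the members. *UGA2*, succinate semialdehyde dehydrogenase, averaged 117 ± 13.9 CPM in BY *UBR1* -469A>T and 117 ± 16.3 CPM in BY (SD, n = 5 each). The unadjusted means were thus level, and the log2 fold change of 0.14 (SE 0.049, edgeR adjusted p = 0.085) rested on the surrogate variables: without them it was 0.00012 and not called. *UGA1*, GABA transaminase, and *UGA4*, the GABA permease, did not pass the test, with log2 fold changes of 0.017 and -0.065. *ASP1*, cytosolic asparaginase, averaged 201 ± 27.5 CPM in BY *UBR1* -469A>T, against 169 ± 16.1 CPM in BY (SD, n = 5 each), with a log2 fold change of 0.11 (SE 0.033, edgeR adjusted p = 0.050). *UGA2* lost its call without BY replicates 4 (0.12) or 5 (0.15) or without edited replicates 1 (0.17), 2 (0.18) or 3 (0.13), and of the fits that left out a library *ASP1* kept its call only in those without BY replicate 1, BY replicate 3 or edited replicate 1, at values from 0.085 to 0.14 over the 10 fits. *ECM38*, γ-glutamyltranspeptidase of glutathione breakdown, was called lower, with 87.4 ± 17.7 CPM in the edited strain and 118 ± 30.2 CPM in BY (SD, n = 5 each). Its log2 fold change of -0.18 (SE 0.045, edgeR adjusted p = 0.028) shrank to -0.082 without BY replicate 1 and -0.11 without BY replicate 5, and these fits and the one without edited replicate 2 (-0.14) lost the call. *CPS1*, a vacuolar carboxypeptidase, had a log2 fold change of -0.031 and was not called.

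Of the 5 genes of ammonium and glutamate metabolism, 1 was called lower with edgeR and 2 surrogate variables. *GDH1* was called as well in some alternatives, and *GLN1* in 1 of 21. *GDH2* (YDL215C, chrIV:70640-73918, minus strand), the NAD-dependent glutamate dehydrogenase, had 147, 128, 112, 111 and 99.2 CPM in BY *UBR1* -469A>T, against 172, 191, 182, 157 and 131 CPM in BY. BY replicates 1 to 4 were above every edited library, and BY replicate 5 was inside the edited range. The log2 fold change was -0.31 (SE 0.035, edgeR adjusted p = 0.00061; exact two-sided permutation p = 0.016), and it ranged from -0.32 to -0.28 without single libraries. *GDH1*, the main NADP-dependent glutamate dehydrogenase, had 1234, 1062, 946, 828 and 808 CPM in the edited libraries and 1959, 1511, 1379.7, 931 and 862 CPM in BY. Although BY replicates 1, 2 and 3 again stood above, the fitted log2 fold change of -0.16 did not pass the test (SE 0.063, edgeR adjusted p = 0.12). *GDH1* was called lower by DESeq2 (adjusted p = 0.046) and by edgeR with 3 surrogate variables (0.046), with a minimum of 100 counts (0.037), with upper-quartile normalization (0.082) and with the size factors of DESeq2 (0.098), and its adjusted p ranged from 0.022 to 0.94 over 21 alternatives. It also passed without BY replicate 4 (-0.23), and was -0.0078 without BY replicate 1 and -0.043 without BY replicate 5. *GLN1*, glutamine synthetase, had 2464, 2238, 2205, 1618 and 1487 CPM in BY *UBR1* -469A>T, against 2973, 2734, 2735, 1844 and 1737 CPM in BY. Its log2 fold change was -0.026 (SE 0.087, edgeR adjusted p = 0.87), while the difference without covariates was -0.26, and its sign turned in 6 of the 10 fits that left out a library, those without BY replicates 1, 3 or 5 or edited replicates 1, 2 or 4 (0.0030 to 0.064). A replicate block without surrogate variables called *GLN1* lower (-0.26, edgeR adjusted p = 0.012), though the replicate numbers were not taken to pair the samples. *GLT1*, glutamate synthase, and *GDH3*, the second NADP-dependent enzyme, had log2 fold changes of -0.032 and 0.016 and were not called. *GDH1* and *GDH3* were the only members that shared 31-base words with another transcript, 5 words that they share with each other, or 0.375% of the words of *GDH1* and 0.372% of those of *GDH3*.

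Among the GATA regulators, 1 activator and 1 repressor were called lower. *GAT1* (YFL021W, chrVI:95966-97498, plus strand), the activator that is itself under NCR, had 119, 84.2, 61.6, 53.0 and 40.5 CPM in BY *UBR1* -469A>T, against 205, 173, 150.4, 89.3 and 60.7 CPM in BY. Its layout was that of the permeases, with BY replicates 1, 2 and 3 above every edited library and BY replicates 4 and 5 inside their range. The fitted value was -0.40 on the log2 scale (SE 0.062, edgeR adjusted p = 0.0026), with -0.89 without covariates and -0.25 without BY replicate 1, and the call stood in all 10 fits that left out a library. With 1 surrogate variable *GAT1* had -0.18 and was not called. *GZF3*, a repressor, was steadier, with 51.8, 47.5, 41.0, 45.0 and 42.4 CPM in the edited libraries and 56.6, 53.3, 54.2, 52.4 and 48.6 CPM in BY. Of the BY libraries only replicate 5 overlapped with the edited ones. Its log2 fold change was -0.15 (SE 0.044, edgeR adjusted p = 0.050; exact two-sided permutation p = 0.016), and the call was lost without BY replicate 5 (-0.13) or edited replicate 2 (-0.14).

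*GLN3*, *URE2* and *DAL80* did not pass the test. *GLN3*, the other activator, had 59.2, 59.6, 52.5, 55.9 and 45.7 CPM in BY *UBR1* -469A>T, against 53.4, 63.2, 59.1, 60.8 and 57.0 CPM in BY, and the strains overlapped (log2 fold change -0.035, SE 0.039, edgeR adjusted p = 0.58). *URE2*, the cytoplasmic inhibitor of Gln3, had 135, 132, 131, 131 and 125 CPM in the edited libraries and 142, 133, 131, 133 and 134 CPM in BY, and was among the least variable transcripts measured (log2 fold change -0.023, SE 0.032, edgeR adjusted p = 0.67; 0.011 without BY replicate 5). *DAL80*, the repressor often read as a reporter of NCR, had the lowest TPM of the 38 members, with 29 to 65 estimated counts per library. It had 0.568, 0.452, 0.451, 0.410 and 0.348 CPM in BY *UBR1* -469A>T, against 0.623, 0.474, 0.476, 0.666 and 0.514 CPM in BY. BY replicates 1 and 4 lay above every edited library, and the other BY libraries overlapped with them. Its log2 fold change of -0.22 had an SE of 0.18 (edgeR adjusted p = 0.45). The fold change of *DAL80* was -0.11 without BY replicate 4 and -0.36 without edited replicate 1.

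Of the pathway activators, *PUT3*, which switches on *PUT1* and *PUT2*, was called lower by a small amount. It averaged 95.8 ± 1.95 CPM in BY *UBR1* -469A>T and 105 ± 2.95 CPM in BY (SD, n = 5 each), with no overlap between strains. The log2 fold change was -0.12 (SE 0.031, edgeR adjusted p = 0.028; exact two-sided permutation p = 0.0079), and the call was lost without BY replicate 5 (-0.14) or edited replicate 2 (-0.10). *UGA3*, the activator of the GABA genes, *DAL81*, which acts with it and with *DAL82*, and *DAL82*, the activator of the allantoin and urea genes, had log2 fold changes of -0.068, -0.028 and 0.015 and were not called.

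Genes around NCR were read from lists outside the 38, also chosen with earlier results of these data known. Their calls stand beside the 9.32% of all tested transcripts called lower, 11.9% called higher and 21.2% called in either direction. Of 14 other nitrogen-regulated genes, edgeR called 7 lower and 0 higher, with 8 at an unadjusted p under 0.05, 0 of them higher, and a median log2 fold change of -0.14. They included the amino acid permeases *DIP5* (-0.40, SE 0.098, edgeR adjusted p = 0.025), *AGP1* (-0.39, SE 0.12, edgeR adjusted p = 0.057) and *CAN1* (-0.35, SE 0.088, edgeR adjusted p = 0.026) and the cytosolic branched-chain aminotransferase *BAT2* (-0.29, SE 0.057, edgeR adjusted p = 0.011). The others were *UGX2* (-0.26), *VSB1* (-0.16) and *VID30* (-0.13). Of 16 genes of TORC1 and the signalling around it, upstream and downstream, 3 were called and 13 were not, a share near the 21.2% of all transcripts. *LST8*, a subunit of both TOR complexes, was called higher, with 88.3, 97.3, 101, 92.0 and 91.6 CPM in BY *UBR1* -469A>T, against 68.8, 72.4, 72.6, 70.8 and 83.5 CPM in BY. All edited libraries lay above all BY libraries for *LST8* (log2 fold change 0.32, SE 0.050, edgeR adjusted p = 0.0026). The kinase genes *NPR1* (-0.29, SE 0.068, edgeR adjusted p = 0.022) and *TOR1* (-0.13, SE 0.033, edgeR adjusted p = 0.031) were called lower. Of 11 genes for 2-oxoglutarate supply and retrograde signalling, edgeR called 0, with 0 at an unadjusted p under 0.05, and their median log2 fold change was -0.011. Among 5 regulators of arginine genes, *MCM1* (0.25) and *ARG80* (0.24) were called higher and *ARG82* (-0.10) lower.

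Several NCR transcripts were among the most variable transcripts within strains. The SD of log2 CPM within strains, pooled over both, had a median of 0.23 over the 38 and of 0.13 over all 5987 tested. Of the 100 most variable transcripts 8 were members, and of the first 20, 5 were: *MEP2* at rank 5, *DUR1,2* at 6, *GAP1* at 8, *PUT4* at 9 and *DUR3* at 19. *DAL3*, *GAT1* and *CAR1* followed at 60, 63 and 91. The highest library held more than 2 times the lowest for 10 members in BY *UBR1* -469A>T and 13 in BY, up to 8.87 times for *PUT4* in the edited strain and 10.1 times for *DUR1,2* in BY. The regulators *URE2* (rank 5834) and *PUT3* (rank 5930) were at the other end, with the *PUT3* libraries within 1.04 times of each other in BY *UBR1* -469A>T and 1.07 times in BY. The same libraries were at the extremes: replicate 1 was the highest for 26 members in BY *UBR1* -469A>T and 22 in BY, and replicate 5 was the lowest for 25 members in BY *UBR1* -469A>T and 29 in BY. *ASP1* ran the other way and was highest in replicate 5 of both strains. The first principal component of these deviations held 59.7% of their variance over all transcripts. The deviations of 24 other members correlated with those of *GAP1* at r over 0.8, as did those of 18.1% of all transcripts, and 6 members had an r under 0. The counts of extreme libraries and of ratios over 2 were not made over all transcripts.

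**Figure D3:**
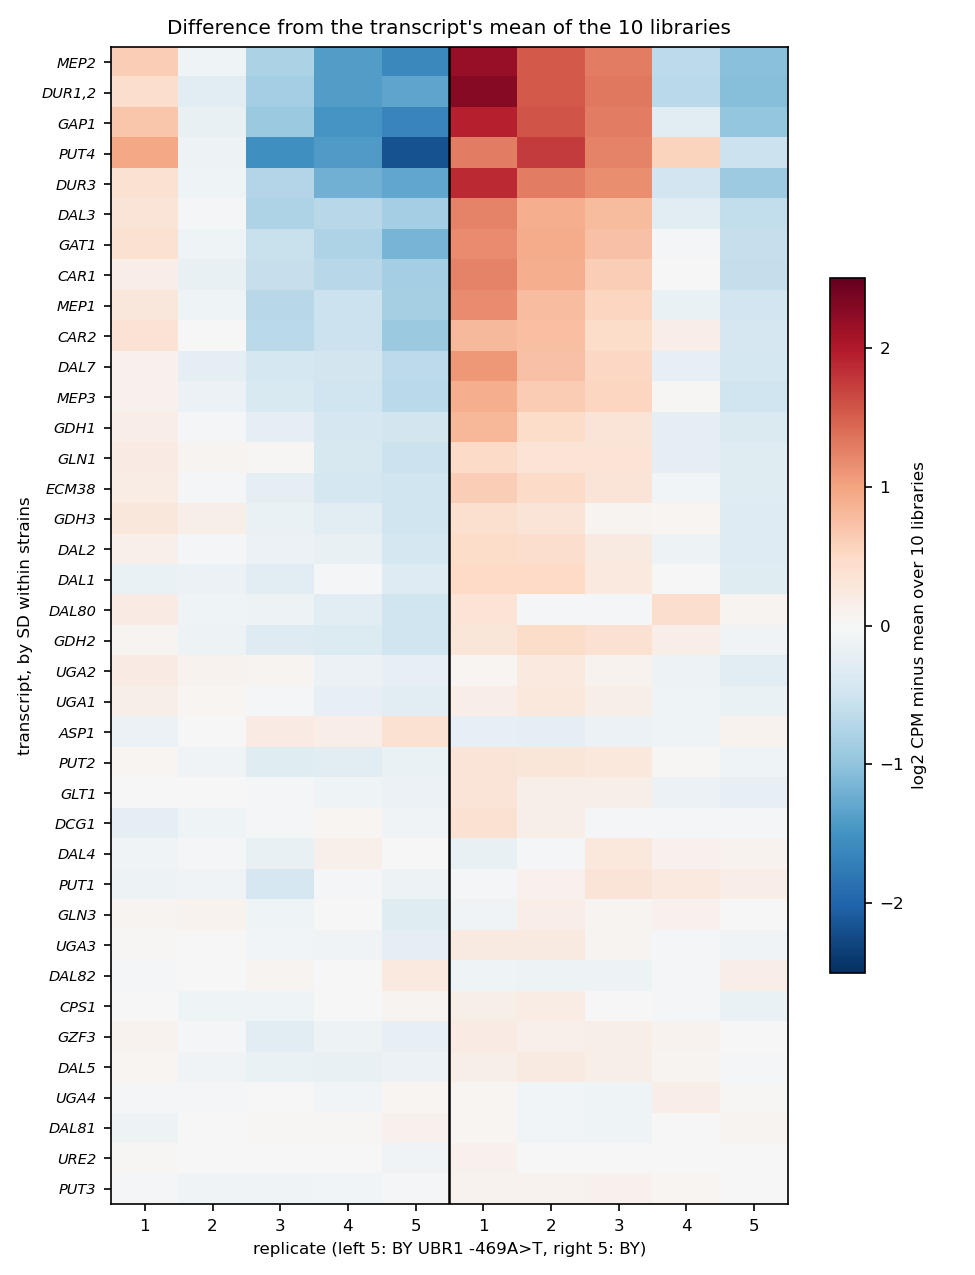
Log2 CPM of each NCR transcript in each library minus its mean over all 10, with BY *UBR1* -469A>T in the left 5 columns and BY in the right 5 and the most variable transcripts at the top. In both strains red (high) replicate 1 faces blue (low) replicate 5 for the upper rows, BY replicates 1 to 3 are the reddest, and the lower rows, such as *URE2* and *PUT3*, are nearly white.

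Levels were compared between genes on the TPM scale, which is per length. *GLN1* was highest at 863 ± 183 TPM in BY *UBR1* -469A>T and 1100 ± 273 TPM in BY (SD, n = 5 each), and *GDH1* came next at 328 ± 61.0 TPM in BY *UBR1* -469A>T and 474 ± 163 TPM in BY. Next were *ASP1* (83.6 ± 11.9 TPM) and *CAR1* (74.9 ± 23.3 TPM) in BY *UBR1* -469A>T, which did not differ beyond their spread, and *CAR1* (154 ± 71.5 TPM) and *GAP1* (102 ± 68.5 TPM) in BY, which overlapped as well. The bottom was held by *DAL80* (0.291 ± 0.0529 TPM in BY *UBR1* -469A>T and 0.379 ± 0.0550 TPM in BY), *DAL4* (0.434 ± 0.0341 TPM in BY *UBR1* -469A>T and 0.490 ± 0.0600 TPM in BY), *DAL1* and *UGA4*, in this order in both strains. Within the allantoin route, *DAL4* and *DAL1* were thus near the bottom, while *DUR1,2* reached 10.98 ± 6.41 TPM in BY *UBR1* -469A>T and 37.5 ± 29.6 TPM in BY. On this scale *URE2* separated by strain too, at 59.6 ± 1.54 TPM in BY *UBR1* -469A>T and 65.0 ± 2.16 TPM in BY, with every edited library lower. That separation was absent in normalized CPM. TPM has no TMM scaling, and the TMM factors were 0.953 to 0.995 in BY *UBR1* -469A>T and 1.004 to 1.033 in BY. Between strains, TPM therefore places the edited libraries lower than normalized CPM does.

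**Figure D4:**
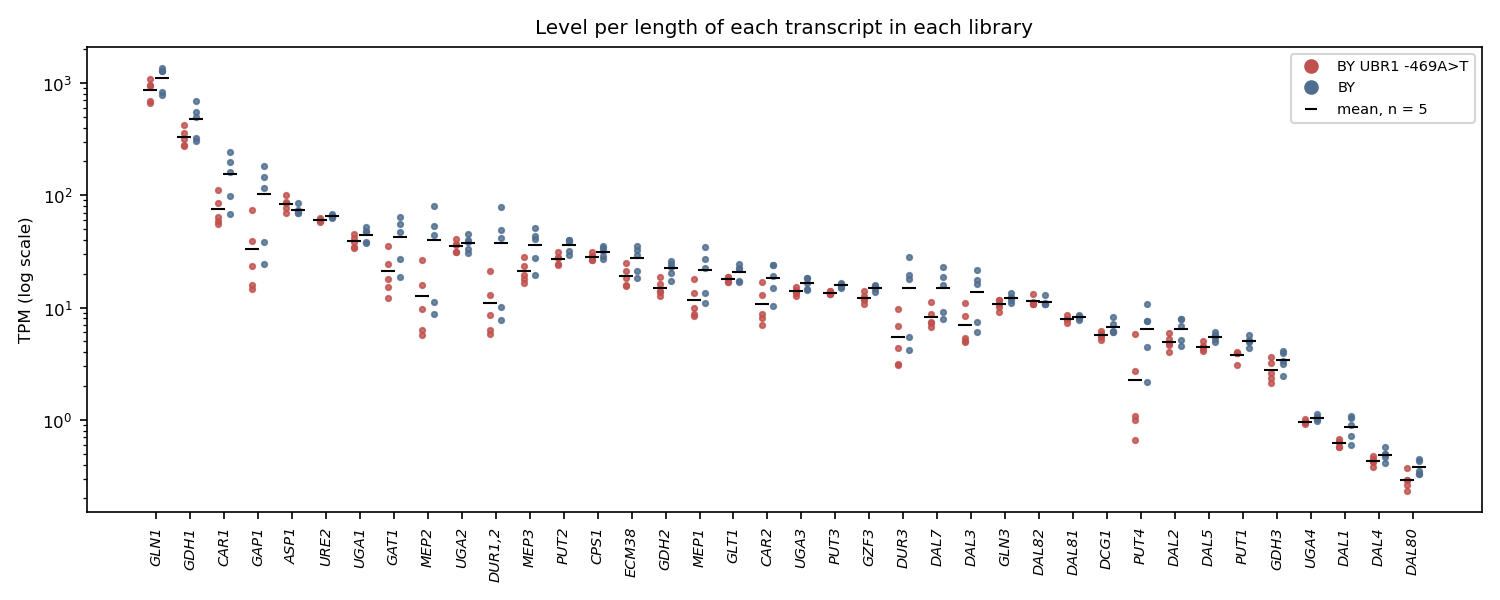
TPM of the 38 transcripts in each library on a log scale, ordered by mean level, with BY *UBR1* -469A>T (red) to the left of BY (blue) and bars at the means of 5. Levels span from 863 TPM for *GLN1* to 0.291 TPM for *DAL80* in BY *UBR1* -469A>T, and the widest spreads are those of *MEP2*, *DUR1,2*, *DUR3*, *GAP1* and *PUT4*.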

How the data were processed

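The authors deposited, for each of 10 libraries (5 BY *UBR1* -469A>T and 5 BY), Kallisto's estimated counts and TPM per transcript, made after fastp trimming of directional paired-end poly(A) reads by pseudoalignment to Ensembl 96. Their versions are not given in the sources used here. The estimated counts as deposited were rounded, and 5987 of 6612 transcripts, those with 10 or more in each library and an effective length of 1 or more, were tested with edgeR 4.0.16 (R 4.3.3): quasi-likelihood test, TMM, 2 surrogate variables (sva 3.50.0), Benjamini-Hochberg adjusted p under 0.1. The study fitted DESeq2 with terms for batch of extraction, culture density and 2 surrogate variables. It also filtered on transcript integrity, which was not done here, and called far fewer transcripts at the same threshold. DESeq2 1.42.0 was an alternative here. The deposited TPM values entered no test. SEs are the log2 fold change over the square root of F. Permutation tests on log2 CPM are exact over 252 splits and two-sided.

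All 38 members have the same length in the deposited tables and in R64, from which coordinates and sequences were read. Replicates of a strain differed by 67.5 to 544 times what counting error gives (chi-square over its degrees of freedom), so each library counted as 1 sample. Counting error does not cover the spread between cultures. The procedure was also run on counts simulated from its own fit, surrogate variables included. Such counts cannot show whether the surrogate variables suit these data, and no result here rests on that run. Values per library are given for 20 members: 11 core genes named in a written rule (*GAP1*, *MEP2*, *DAL5*, *DAL80*, *GLN1*, *GDH1*, *GDH2*, *GAT1*, *GLN3*, *GZF3*, *URE2*) and called members in order of fold change. The other members are given by fold change. Outside the members, *UBR1*, strain markers and called genes of the 4 pathway lists are named. The members, lists and rule were chosen with earlier results of these data known.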

Additional observations from a re-analysis of the deposited data

Results flagged for a closer look

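Each member was checked in each strain, with *UBR1* as well, for a library whose gap to the nearest other library was above 0.71 of the strain's range (Dixon's 95% value for 5 samples). This marked 3 of 78 groups, where chance marks about 1 in 20. Replicate 3 of BY *UBR1* -469A>T held *PUT1* at 9.88 CPM, with 12.1 to 12.9 CPM in the other libraries of that strain, a gap of 0.742 of the range. *URE2* in BY replicate 1 had 142 CPM, against 131 to 134 CPM in the other BY libraries, a gap of 0.798. *DAL82* in BY replicate 5 had 17.4 CPM, against 14.3 to 15.2 CPM in the other BY libraries, a gap of 0.718.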

How the results depend on the processing

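The direction of the members' median log2 fold change was negative in every alternative run (-0.29 to -0.13), but the calls depended on the surrogate variables. With 0 surrogate variables edgeR called 0 transcripts and 0 members in either direction, and *UBR1* was not called (log2 fold change 0.22). With 1 it called 43 transcripts, 1 member lower (*GDH2*) and 0 higher, *UBR1* was again not called (0.22), and *GLN1* turned to 0.084. With 3 it called 1841 transcripts. Of the members 21 were lower, where 13.6% of all transcripts were, and 2 were among the 1027 called higher. DESeq2 called 1430 transcripts, with 20 members lower, where 10.5% of all were, and 2 among the 801 called higher. An adjusted p under 0.05 left 756 transcripts, with 14 members lower, where 5.4% of all were, and 1 among the 433 called higher. Without the count filter 14 members were lower, where 5.85% of all were, and 1 was among the 544 called higher. In that fit *MEP2*, *DAL3*, *DUR1,2*, *DUR3*, *UGA2* and *ECM38* lost their calls. *MEP2* was the member whose call DESeq2 did not make. Over all tested transcripts, same-numbered libraries did not all deviate together (r from -0.0103 to 0.682), so the numbers were not taken to pair the samples. At all 5 numbers the edited library was below the BY library for 28 members, as it was for 16.1% of all transcripts. It was above the BY library at all 5 numbers for 2 members, and the share of all transcripts was not counted in that direction. A replicate block without surrogate variables gave 2373 transcripts, with 26 members lower, where 18.5% of all were, and 1 among the 1268 called higher. It made calls on *GLN1* (-0.26) and *GDH1* (-0.40) and none on *UGA2* (0.0031). With 2 surrogate variables the block gave 43 transcripts and 0 members in either direction, *UBR1* at 0.34 without a call, *DAL3* at 0.0057 and *PUT2* at 0.042.

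Leaving out 1 library gave 246 to 1289 transcripts, 6 to 20 members lower, 0 to 2 higher, and *UBR1* at 0.17 to 0.25. *GLN1* ranged from -0.085 to 0.064 and *URE2* from -0.032 to 0.011, both turning sign. The causes were not tested. *DAL80* had no value with at least 100 counts. *DAL80* had the fewest counts (29 to 65 per library, against 127 or more for every other member). These alternatives were not run for the genes of the other lists, *UBR1* apart.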
